A study of Arabidopsis thaliana with 48 samples.

Results

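Blue light (peak 453 nm, half-bandwidth 18 nm) was compared with red light (peak 650 nm, half-bandwidth 15 nm) after 4 h of continuous irradiation at the same photon flux of 10 µmol per m2 and s. The comparison was chosen by the treatment codes in the array titles and holds 6 of the 48 arrays of the series, 3 of blue and 3 of red light. All were Arabidopsis thaliana Col-0 seedlings, labelled as mainly hypocotyl and cotyledons. The seeds (18 mg of dry seed, stratified for 48 h at 8 °C on Murashige and Skoog agar) were given 2 h of red light to germinate and then 94 h of darkness at 22 °C, after which the light treatment began, so that blue and red seedlings shared the red germination light and the dark growth. Seedlings left in darkness and harvested at 4 h (3 arrays), the blue and red groups harvested after 45 min (3 arrays each), and the groups in white and far-red light at 4 h (3 arrays each, 10 µmol per m2 and s, far-red peak 715 nm) were used beside them. The fit and the likeness of levels also drew on the other groups of the series, among them seedlings given a red pulse, UV-A or UV-A/B light. Whether the 3 replicates were sown separately is not stated in the labels, so p-values measure the spread between arrays, which may be technical, and the number of arrays limits the precision.

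Seedlings that grow in darkness keep a long hypocotyl and closed, pale cotyledons, and light switches them to greening and short growth. Red light acts through the phytochromes, and blue light through the cryptochromes and phototropins, with phytochromes also absorbing some blue light. Downstream of these receptors, light stabilises the transcription factor HY5, which with its homolog HYH activates flavonoid and other light-induced genes, while auxin-related and cell wall genes serve the elongation of the dark-grown hypocotyl. The comparison of blue with red at equal photon flux asks which transcripts differ with the colour of the light. Receptor genes (photoreceptor, cryptochrome and phototropin lists) had no named probe set that was tested and are not analysed here.

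Arrays of the same light correlated across probe sets (Pearson r of 0.9694 to 0.9797 on the log2 scale, 6 pairs) more closely than arrays of different light (0.9583 to 0.9687, 9 pairs). The cotyledon genes RCA and LHCB4.1, the 2 of 9 markers of cotyledon and hypocotyl with a named probe set, had a summed signal of 2621 to 3547 in blue and 2786 to 3574 in red light. For root and root hair, 2 of 13 markers had a named probe set (EXPA7 and EXPA18), with a summed signal of 27.5 to 37.6 in blue and 21.6 to 49.8 in red. For guard cells, 3 of 7 had one (FMA, MUTE and SPCH), with 27.8 to 43.4 in blue and 23.9 to 45.3 in red. These signals were low. EXPA7, SPCH and MUTE did not pass the filter for testing. The means of EXPA18 and FMA, from 19.5 to 23.8, lay below the 40th percentile of the 6 arrays (26.6 to 28.6). The sums therefore cannot show how much root or guard cell RNA was present. None of the 10 seed and 5 flower markers had a named probe set. In whole seedlings, fewer cells of a type and less RNA per cell cannot be told apart.

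After 4 h, 655 of 15777 probe sets tested (4.15%) differed between blue and red light, that is, had a Benjamini-Hochberg adjusted p under 0.05 in limma and are called here. Signals are linear array signals, tested as log2(signal + 1). Of these, 339 (2.15%) were higher and 316 (2.00%) were lower in blue. The labels give replicate numbers but do not say that they pair the arrays. Deviations of blue and red arrays of the same number correlated weakly at 4 h (r of 0.11 to 0.175), and the numbers were taken as pairs. With the replicate number as a block in the fit 1012 probe sets were called, among them all 655. Unless the block is named, calls, shares, SE and p-values come from the fit without it, so a probe set not called may be called with the block. Without blue 4 h replicate 1, 420 were called, 402 of them among the 655. The arrays of blue and red did not overlap for 337 of the 339 and for 310 of the 316 probe sets called. Over all probe sets tested, called or not, 1572 were higher and 1794 lower in blue without overlap.

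The median difference was 0.77 (log2) among probe sets called higher, with the highest at 3.44, and -0.61 among those called lower, with the lowest at -2.63. A difference of at least 1 on the log2 scale was reached by 101 probe sets called higher and 35 called lower, and one of at least 2 by 14 and 1. The probe set 251020_at, which no gene is paired with here, was at 785.5 ± 58.8 (SD, n = 3) in blue and 110.5 ± 7.37 in red light (difference 2.82 ± 0.16 SE, adjusted p = 3.26e-16). Another without a gene, 262045_at, was at 72.1 ± 6.67 in blue and 253.8 ± 18.7 in red light (-1.80 ± 0.19 SE, adjusted p = 2.2e-08). Of the 655, 309 are paired with 1 gene (144 higher and 165 lower), and only these are named below.

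**Figure D1:**
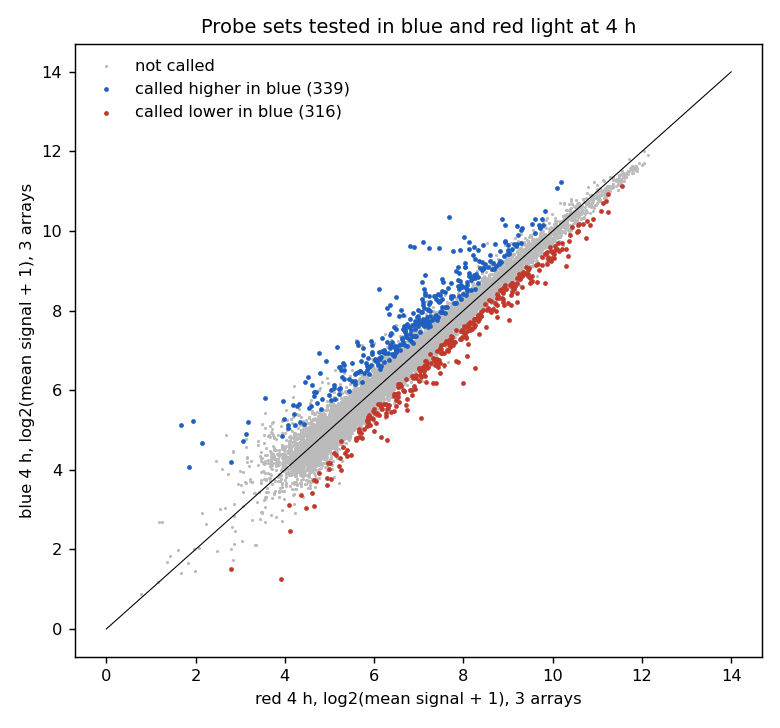
Mean signal in blue (y axis) against red light (x axis) at 4 h, both as log2(mean signal + 1) over 3 arrays, 1 point for each of the 15777 probe sets tested. The 339 probe sets called higher in blue lie above the diagonal line and the 316 called lower lie below it, and both kinds occur over most of the signal range.

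Among the 14 named genes with the largest rise in blue over red, ranked with a pseudocount of 16, AT3G57020 came first. Its signal was 841.1, 770.4 and 923.8 on the blue arrays, 137.0, 122.7 and 148.7 on the red arrays and 37.5, 47.8 and 36.8 on the dark arrays. The 3 groups were apart, with red between dark and blue, and the difference of blue from red was 2.63 ± 0.23 (SE, log2; adjusted p = 1.53e-10). MSRB6, a methionine sulfoxide reductase, which repairs oxidised methionine in proteins, was at 904.4, 905.6 and 971.2 in blue, 219.3, 275.4 and 275.0 in red, and 41.4, 24.8 and 30.4 in darkness. Blue exceeded red by 1.86 ± 0.21 (SE; adjusted p = 6.33e-08).

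Light signalling genes were also among the rises. HYH, the bZIP homolog of HY5, was at 90.0, 106.1 and 121.1 in blue, 27.5, 32.4 and 27.9 in red, and 9.8, 5.9 and 1.2 in darkness. Every blue array exceeded every red array, by 1.81 ± 0.38 (SE; adjusted p = 0.0018). AFR, an F-box protein known from far-red light signalling, was at 240.8, 197.0 and 265.5 in blue against 87.1, 120.3 and 90.4 in red light (1.24 ± 0.17 SE, adjusted p = 1.69e-06). FHL, which helps to carry phytochrome A into the nucleus, was not called (-0.24, adjusted p = 0.524), with 43.6, 37.5 and 42.8 in blue and 44.4, 55.9 and 46.8 in red, and without red 4 h replicate 2 its difference was -0.14. These are the 3 tested of 31 genes on a list of photomorphogenesis regulators, of which 2 were called higher and 0 lower. The shares over all probe sets tested were 2.15% and 2.00%.

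AT3G52740 had the widest log2 difference of the named genes, at low signal. It was at 39.6, 38.4 and 31.3 in blue, at 3.9, 2.9 and 1.7 in red, and at 1.1, 2.1 and 1.6 in darkness. Blue stood apart from both others, while red and dark arrays overlapped. The difference of blue from red was 3.32 ± 0.63 (SE; adjusted p = 0.00053) and 1.48 with a pseudocount of 16, since signals this low lie near the floor of the array.

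The other leading rises were AT1G48100 (1.86 ± 0.29 SE), AT3G56290 (1.72 ± 0.21), AT2G46420 (1.81 ± 0.20), AT3G02910 (1.60 ± 0.17) and AT1G64500 (1.63 ± 0.30), for which the annotation used here gives only the locus. XTH32, a xyloglucan endotransglucosylase/hydrolase, which cuts and rejoins xyloglucan in the cell wall, was at 1119.0, 1147.3 and 1148.2 in blue, 519.5, 432.2 and 507.3 in red and 97.1, 87.9 and 51.7 in darkness (1.23 ± 0.25 SE, adjusted p = 0.000988). The gene tny, for the AP2 type factor TINY, was at 800.9, 787.2 and 802.9 in blue against 350.9, 288.1 and 395.2 in red (1.22 ± 0.16 SE, adjusted p = 1.51e-06). TPS-CIN, a terpene synthase for 1,8-cineole, was higher in blue by 1.40 ± 0.35 (SE; adjusted p = 0.0103), and the call was lost without blue 4 h replicate 1, blue 4 h replicate 3 or red 4 h replicate 2 (adjusted p = 0.0573, 0.0716 and 0.0589). In each of these genes red lay above dark and below blue.

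GI (GIGANTEA), a clock and flowering gene, rose less. Its signal was 366.2, 366.8 and 444.1 in blue, 225.7, 247.6 and 225.1 in red and 153.2, 143.4 and 152.2 in darkness (0.75 ± 0.17 SE, adjusted p = 0.00339). It was the 1 called of 2 clock genes tested of 21, where 2.15% of all probe sets tested were called higher. The other, COR27, a cold and light responsive regulator, was low at 7.8, 21.2 and 11.9 in blue and 19.1, 23 and 21.1 in red, with overlapping arrays and no call (-0.69). That value was -0.38 without blue 4 h replicate 1, -1.05 without blue 4 h replicate 2 and -0.35 with a pseudocount of 16.

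**Figure D2:**
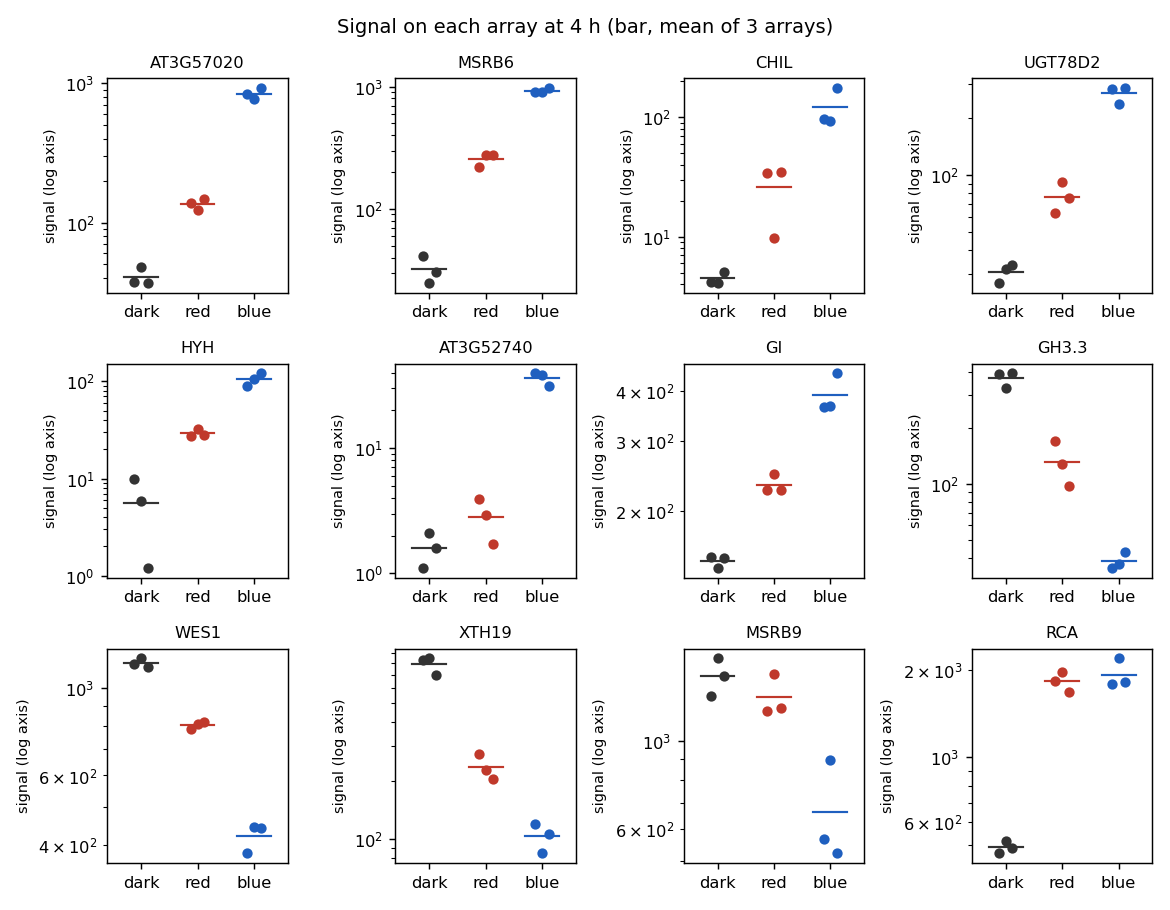
Signal of 12 genes on each array (points, log axis) in darkness, red light and blue light at 4 h, with the mean of 3 arrays as a bar. Blue and red arrays are apart in every panel but that of RCA, and in the first 7 genes red lies between dark and blue or, for AT3G52740, near darkness.

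Genes of flavonoid synthesis were among those higher in blue light. Of 43 genes on a list of phenylpropanoid and flavonoid synthesis, 8 were tested, and 3 of them rose and 0 fell. Over all probe sets tested, 2.15% were called higher and 2.00% lower. The median difference over the 8 was 0.82, against -0.02 over all probe sets tested, and 7 of the 8 values were above 0. CHIL, a chalcone isomerase-like protein that promotes flavonoid synthesis, was at 97.2, 93.3 and 175.3 in blue, 34.4, 9.7 and 34.5 in red, and 4.2, 4.1 and 5.1 in darkness. The lowest blue array was above the highest red one, and the difference was 2.31 ± 0.44 (SE; adjusted p = 0.000555).

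UGT78D2, which attaches glucose to flavonols and anthocyanins, was at 284.6, 235.7 and 286.3 in blue, 63.3, 91.6 and 75.9 in red and 27, 32.1 and 33.6 in darkness. Blue exceeded red by 1.80 ± 0.15 (SE; adjusted p = 2.76e-11). UF3GT, a glycosyltransferase of anthocyanins, was at 70.8, 42.2 and 83.5 in blue against 41.9, 30.5 and 37.6 in red light (0.78 ± 0.23 SE, adjusted p = 0.0396). The blue and red arrays of UF3GT lay close to each other (42.2 against 41.9). Its call was lost without the filter on low values (adjusted p = 0.0621), in a fit on these groups alone (0.118) and without blue 4 h replicates 1 or 3 or red 4 h replicates 2 or 3 (adjusted p = 0.186, 0.288, 0.202 and 0.0943).

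Of the 5 members not called, UGT78D1, which attaches rhamnose to flavonols, had means of 89.8 in blue and 33.7 in red light (difference 1.41, 95% interval 0.38 to 2.43, adjusted p = 0.127). CCR2, a cinnamoyl-CoA reductase of the lignin branch, had 41.6 and 24.4 (0.86, interval 0.05 to 1.68, adjusted p = 0.31). DFR, for the anthocyanin enzyme dihydroflavonol reductase, had 32.9 and 31.4 (0.06, interval -0.36 to 0.48), and HCT, an enzyme of lignin precursors, 861.5 and 868.9 (-0.01, interval -0.26 to 0.23). UGT84A1, a glycosyltransferase, was near the floor of the array in both, at 2.57 and 1.67 (0.42, interval -0.83 to 1.68). Outside this list, the glycosyltransferases UGT72B3 and UGT74D1 also rose (1.01 and 0.77), which makes 3 of 32 tested UGT genes called higher and 0 lower. Over all probe sets tested, 2.15% were called higher and 2.00% lower. The median over the 32 UGT genes was 0.06, with 17 values above 0 and 15 below. The call of UGT72B3 was lost without blue 4 h replicate 1 or red 4 h replicate 3 (adjusted p = 0.0569 and 0.137). With the block UGT71C4 was called as well (0.38, adjusted p = 0.00619 against 0.0621). Of 10 tested genes of the beta-glucosidase family BGLU, 1 was called higher and 0 lower, with a median of -0.03 and 6 values below 0. That gene, BGLU47, had 29.4, 42.6 and 29 in blue and 12.1, 20.2 and 20.5 in red (0.91 ± 0.27 SE, adjusted p = 0.0388, and 0.56 with a pseudocount of 16). This call was lost in a fit on these groups alone (adjusted p = 0.0995), under a common median (0.0513), without the filter (0.0576), and without blue 4 h replicates 1, 2 or 3 or red 4 h replicate 1 (0.0659, 0.213, 0.0594 and 0.263).

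Of 6 tested auxin-related genes 2 fell in blue, where 2.00% of all probe sets tested were called lower. GH3.3, which joins auxin to amino acids and is a common reporter of auxin response, came first among the 14 named genes with the largest falls. It was at 35.3, 37.3 and 43 in blue, 169.6, 128.1 and 97.2 in red, and 389.3, 329.3 and 393.9 in darkness. All blue arrays lay below all red arrays and these below all dark arrays. The difference of blue from red was -1.72 ± 0.23 (SE; adjusted p = 2e-06). WES1 (GH3.5), of the same enzyme family, was at 381.9, 444.7 and 441.6 in blue, 787.2, 808.0 and 817.5 in red and 1144.3, 1185.0 and 1126.7 in darkness (-0.93 ± 0.14 SE, adjusted p = 2.18e-05), in the same order of groups.

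The auxin list holds 39 genes, and 0 of the 6 tested rose, where 2.15% of all probe sets tested were called higher. The 4 not called were GH3.17, a further member of the conjugating family (0.31, 95% interval 0.00 to 0.62), YUC2, of auxin synthesis (-0.03, interval -0.29 to 0.23), and the Aux/IAA repressors IAA20 (0.19, interval -0.66 to 1.04) and IAA29 (0.04, interval -0.32 to 0.39). IAA29 was at 45.9, 45.4 and 36.7 in blue and 40.9, 47.3 and 36.5 in red, against 105.5, 103.9 and 123.8 in darkness, so that blue and red overlapped below the dark arrays, and the sign of its difference turned without blue 4 h replicate 1, blue 4 h replicate 2 or red 4 h replicate 3 (-0.02, -0.01 and -0.05). AT3G53250, a small auxin upregulated RNA (SAUR57) that was not on the list, had means of 27.4 ± 3.37 (SD, n = 3) in blue, 70.4 ± 4.94 in red and 20.2 ± 3.42 in darkness (-1.34 ± 0.28 SE, adjusted p = 0.00199). Here red stood above both darkness and blue.

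HAT2, a homeodomain-leucine zipper factor induced by auxin and shade, was at 143.8, 169.8 and 130.2 in blue and 198.9, 282.4 and 191.0 in red, against 415.3, 438.4 and 487.6 in darkness (-0.58 ± 0.14 SE, adjusted p = 0.00927). Its call was lost in a fit on these groups alone (adjusted p = 0.0796) and without blue 4 h replicate 3 or red 4 h replicate 2 (0.0922 and 0.164). BIM1, a bHLH factor of brassinosteroid signalling, had the other tested probe set of the 16 genes on the list of PIF and shade genes. It was at 0.46 with adjusted p = 0.0611, and was called with the block (adjusted p = 0.0179), with a common median (0.0494) and with the filter at the 60th percentile (0.0447).

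Among genes of cell wall loosening, more fell than rose in blue relative to red light. Of 41 genes on the list 19 were tested, of which 1 rose and 5 fell, with a median of -0.18. Among all probe sets tested, 2.15% were called higher and 2.00% lower, with a median of -0.02. XTH19 was at 119.2, 84.8 and 106.9 in blue, 272.5, 227.8 and 204.1 in red, and 827.3, 847.1 and 698.2 in darkness, 3 groups without overlap (-1.18 ± 0.14 SE, adjusted p = 1.69e-07). XTH33, of the same enzyme family, was at 47.4, 40.3 and 38 in blue against 67.5, 83.4 and 76.1 in red (-0.84 ± 0.18 SE, adjusted p = 0.00259). XTH32 was the member that rose, so that of 6 tested XTH genes 1 was called higher and 2 lower. XTH18 was at -0.82 with adjusted p = 0.0879, and was called with the block (adjusted p = 0.0225).

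Expansins loosen the wall as it is stretched. EXPA8 was at 615.5, 685.3 and 557.8 in blue, 1020.6, 954.9 and 931.1 in red and 1251.0, 1366.6 and 1357.1 in darkness (-0.65 ± 0.12 SE, adjusted p = 0.000261). EXPB1 was at 103.3, 104.2 and 101.0 in blue, below 161.4, 179.3 and 156.9 in red, while red overlapped with 156.2, 186.5 and 166.2 in darkness (-0.68 ± 0.15 SE, adjusted p = 0.00408). EXPA4 changed by -0.41 ± 0.12 (SE; adjusted p = 0.0357). The call of EXPA4 was lost in a fit on these groups alone (adjusted p = 0.0857) and without blue 4 h replicates 2 or 3 or red 4 h replicates 1 or 3 (0.183, 0.0979, 0.103 and 0.212). EXPA9, which was at 95.4 in blue and 83.7 in red light against 622.4 in darkness, was among the members not called (0.20, 95% interval -0.13 to 0.52).

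Genes of leucine breakdown, which dark-grown and sugar-starved plants use to feed respiration, fell in blue. MCCA, a subunit of methylcrotonyl-CoA carboxylase, was at 273.4, 268.3 and 328.5 in blue, 432.5, 521.3 and 577.5 in red, and 921.6, 881.4 and 870.0 in darkness (-0.81 ± 0.13 SE, adjusted p = 2.25e-05). MCCB, the other subunit, was at 336.4, 364.3 and 356.6 in blue, 537.5, 585.2 and 511.1 in red, and 1015.0, 942.6 and 887.3 in darkness (-0.63 ± 0.08 SE, adjusted p = 8.51e-07). Both genes kept the order blue, red, dark without overlap. IVD, the dehydrogenase of the step before, was at 456.1, 453.2 and 452.9 in blue and 606.3, 565.9 and 576.6 in red (-0.36 ± 0.09 SE, adjusted p = 0.0163), a call lost without blue 4 h replicates 1 or 3 or red 4 h replicate 1 (adjusted p = 0.0547, 0.0569 and 0.083). These 3 were the members called of 13 tested on a list of dark and sugar starvation genes, of which 0 rose and 12 had values below 0. Over all 15777 probe sets tested, 2.00% were called lower and 8371 had values below 0. The ATG8 genes of autophagy on this list, from -0.25 for ATG8E to 0.18 for ATG8H, were not called.

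The other leading falls included MSRB9, a methionine sulfoxide reductase like the risen MSRB6. It was at 567.4, 893.9 and 522.2 in blue, 1189.3, 1472.3 and 1214.4 in red and 1297.6, 1615.6 and 1455.5 in darkness (-1.0 ± 0.16 SE, adjusted p = 4.16e-05). In 8 genes known here by locus, differences ranged from -1.24 (AT4G30170) to -0.90 (AT4G23870), with AT5G50915 at -1.05, AT3G24450 at -1.06, AT4G12690 at -0.97, AT3G05150 at -0.95, AT3G12710 at -0.94 and AT3G07010 at -0.92. AT5G48490 was at 290.6, 365.3 and 190.1 in blue and 576.0, 555.8 and 472.0 in red, far above 27.1, 30.5 and 25.7 in darkness, so that both lights were above darkness and red above blue (adjusted p = 0.0245). Its call was lost without blue 4 h replicates 1 or 3 or red 4 h replicates 1 or 2 (adjusted p = 0.0569, 0.239, 0.0948 and 0.0884).

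**Figure D3:**
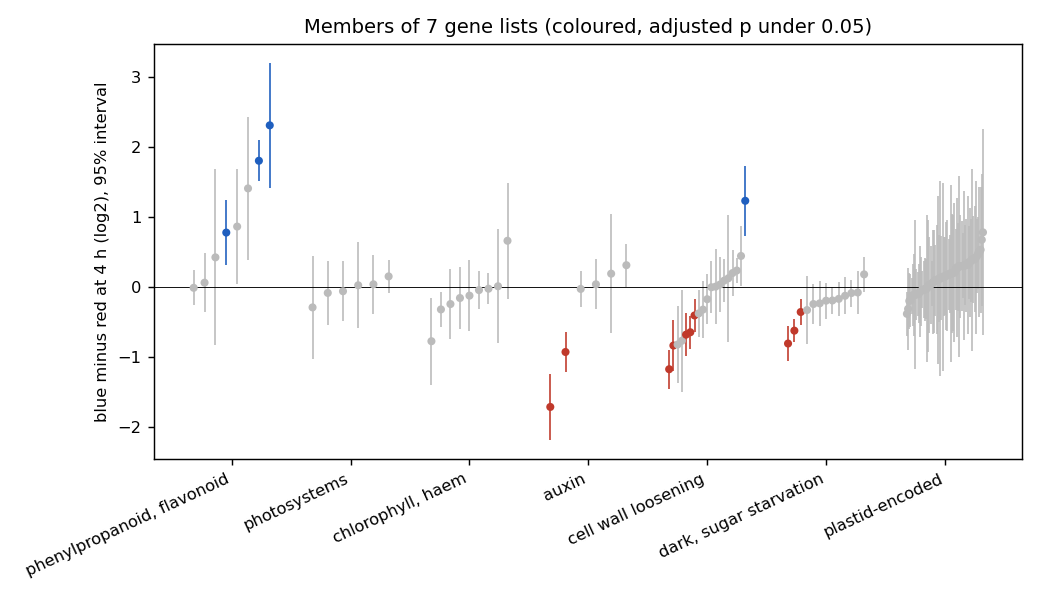
Difference of blue from red light at 4 h (log2, y axis) for the tested members of 7 gene lists (x axis), with 95% intervals from the fit as lines. Members called higher in blue are drawn in blue, members called lower in red and the others in grey. The flavonoid list holds 3 called rises, the auxin, cell wall and starvation lists 2, 5 and 3 called falls, and the photosystem, chlorophyll and plastid-encoded lists no call. Over all probe sets tested, 2.15% were called higher and 2.00% lower.

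Of 38 genes on a list of photosystems and electron transport 6 were tested, and 0 were called between blue and red light in limma. Over all 15777 probe sets tested 4.15% were called, so 0 of 6 is near that share. An unadjusted p under 0.05 was found in 2242 of all probe sets tested and in 0 of the 6 genes. Their median difference was -0.02, with values from -0.29 for PSAE-1 (a photosystem I subunit, 95% interval -1.03 to 0.45) to 0.15 for PGRL1B (of cyclic electron flow, interval -0.09 to 0.39). The median difference from darkness was 1.69 in blue and 1.71 in red, 2 comparisons that share the dark arrays. RCA, which activates rubisco, was at 1778.8, 2184.1 and 1807.8 in blue, 1830.8, 1960.2 and 1681.8 in red and 469.2, 515.0 and 490.1 in darkness. Blue and red overlapped well above darkness, and the difference was 0.07 (95% interval -0.41 to 0.56), a value that turned to -0.02 without blue 4 h replicate 2. On the Calvin cycle list 3 of 22 genes were tested. That list had 0 called and 0 at an unadjusted p under 0.05, which 3 genes can show at the shares over all. Its member PRK, for phosphoribulokinase, had means of 612.7 in blue, 498.5 in red and 425.8 in darkness.

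Of 21 light harvesting genes 3 were tested, all for the antenna protein CP29, and 1 was called higher. Over all probe sets tested, 2.15% were called higher and 2.00% lower. LHCB4.1 was at 920.8, 1363.0 and 813.2 in blue and 1386.2, 1613.7 and 1103.9 in red, with overlapping arrays (-0.43, not called; -0.64 without blue 4 h replicate 2 and -0.27 without blue 4 h replicate 3). LHCB4.2 was at 1070.5, 1071.2 and 929.1 against 1309.8, 1508.6 and 1188.3 and was not called either. LHCB4.3 was at 178.4, 145.2 and 165.8 in blue and 140.4, 136.6 and 87.9 in red, close to 122.0, 105.1 and 106.5 in darkness (0.45 ± 0.13 SE, adjusted p = 0.0376). The call of LHCB4.3 was lost under a common median (adjusted p = 0.0559), in a fit on these groups alone (0.228), and without blue 4 h replicates 1 or 3 or red 4 h replicate 3 (0.21, 0.124 and 0.492).

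Of the 9 tested genes of chlorophyll and haem synthesis (33 on the list) 0 were called in limma (2 at an unadjusted p under 0.05), with a median of -0.13. PORB, which reduces protochlorophyllide in light, was at 454.2, 599.1 and 354.0 in blue and 825.0, 979.2 and 599.9 in red (-0.78 ± 0.31 SE, adjusted p = 0.186), against 1027.8, 1134.7 and 870.1 in darkness. In each replicate number blue was below red, and with the replicate number as a block PORB was called (adjusted p = 0.00286). Of 65 plastid-encoded genes tested 0 were called (1 at an unadjusted p under 0.05). Their median was 0.15, and 47 had values above 0, against 7406 of all 15777 probe sets tested. Their median difference from darkness was -0.19 in blue and -0.25 in red. In limma 0 of 14 CYP, 10 GST, 5 WRKY and 7 rapid stress response genes were called, with 1, 1, 0 and 2 at an unadjusted p under 0.05. Over all probe sets tested 4.15% were called, and 2242 of 15777 had an unadjusted p under 0.05. At a share of 4.15%, sets of so few genes can hold 0 calls, so these counts describe only the genes tested.

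At 45 min, blue and red light differed in fewer probe sets. Of the 15777 tested, 81 (0.513%) were called, 11 (0.0697%) higher and 70 (0.444%) lower in blue. With the block 144 were called, in a fit on these groups alone 31, and without red 45 min replicate 2 or replicate 3, 47 or 53. The 2 harvests share no arrays between these comparisons. Of the 339 called higher at 4 h, 69.0% had a value above 0 at 45 min and 7 were called higher there, while 4 were called lower. Of the 316 called lower at 4 h, 70.6% had a value below 0 at 45 min and 26 were called lower there. Over all tested, 53.7% of the values at 45 min were above 0 and 46.3% below. Across probe sets the 2 differences correlated at r = 0.04 (n = 15777) and, among the 655 called at 4 h, at r = 0.45. Probe sets are not independent replicates, and these values are descriptions.

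HAT2 was the named list member that was called at both harvests. At 45 min it was at 181.0, 189.3 and 161.5 in blue and 279.3, 308.3 and 353.8 in red light (-0.82 ± 0.14 SE, adjusted p = 0.00119), and its mean in darkness was 446.2. The change of this difference to 4 h was 0.24 (adjusted p = 0.746). AT3G02910, a leading rise at 4 h, was at 1064.2, 987.7 and 857.8 in blue and 638.8, 564.2 and 664.9 in red at 45 min, with the groups apart and an adjusted p of 0.0755. AT3G57020 was still low at 45 min, at 55.0, 63.6 and 67.0 in blue and 49.1, 42.7 and 47.1 in red (0.41, adjusted p = 0.761), as was MSRB6 at 35.8, 46.9 and 34 in blue and 31.7, 39.7 and 37.8 in red (0.09, adjusted p = 0.98).

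A test of the difference between harvests called 149 probe sets (0.944%). The signed change of the log2 difference from 45 min to 4 h was positive in 109 (0.691%) and negative in 40 (0.254%), and with the block 336 were called. Among the 149 were 92 probe sets called higher and 35 called lower in blue at 4 h. A negative change can be a wider gap, as in AT4G30170, where the difference went from 0.03 to -1.24. For AT3G57020 the difference grew by 2.22 ± 0.32 (SE; adjusted p = 5.85e-05) and for MSRB6 by 1.77 ± 0.30 (SE; adjusted p = 0.000473). For UGT78D2 it grew by 1.29 and for AFR by 1.10. For CHIL, HYH and GH3.3 the change was 1.95, 1.26 and -1.12, and none of the 3 was called (adjusted p = 0.15, 0.361 and 0.1).

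**Figure D4:**
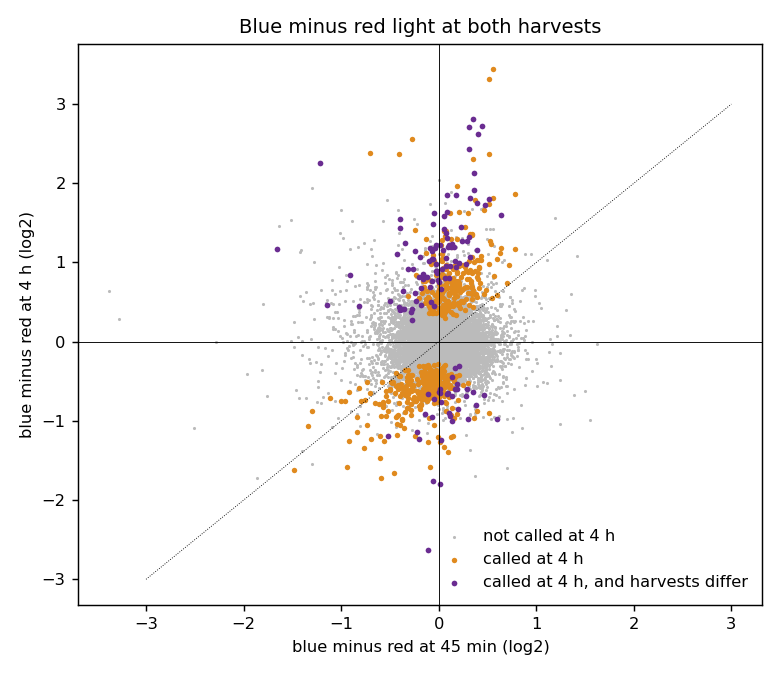
Difference of blue from red light at 4 h (y axis) against that at 45 min (x axis), both log2, for the 15777 probe sets tested. The dotted line marks equal differences. Most of the 655 probe sets called at 4 h (orange and purple) lie near 0 on the x axis, and purple marks those whose 2 differences were called different from each other.

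White and far-red light at 4 h were set beside the blue and red means. Their arrays entered the filter and the estimate of spread behind the calls, but not the difference of blue from red. In all 28 leading genes the mean in white light lay between those of red and blue, as it did in 334 of the 339 probe sets called higher and 299 of the 316 called lower. Over all probe sets tested white lay between in 44.9% of those with blue above red and in 45.3% of those with blue below red. The genes were chosen for a wide gap between blue and red, which makes a position between them more frequent, so these counts are a description. In far-red light the mean was beyond that of blue in 13 of 14 leading rises and 12 of 14 leading falls, against 42.8% and 45.6% over all tested. Over the probe sets called it was beyond blue in 265 of 339 rises (78.2%) and in 157 of 316 falls (49.7%), the latter near the share over all tested. MSRB6, for example, had means of 674.6 in white, 927.1 in blue and 1292.3 in far-red light, and GH3.3 had means of 64.1, 38.5 and 35.4.

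In darkness, the mean of all 14 leading rises lay below red. It lay above red in 11 of the 14 leading falls, the exceptions being AT3G53250 and AT5G48490, with darkness below blue, and AT5G50915, with darkness between. Among the 655 called, red lay between darkness and blue in 279 of 339 rises (82.3%) and in 250 of 316 falls (79.1%), against 50.5% and 50.3% over all tested. These positions use the same blue and red arrays as the calls.

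**Figure D5:**
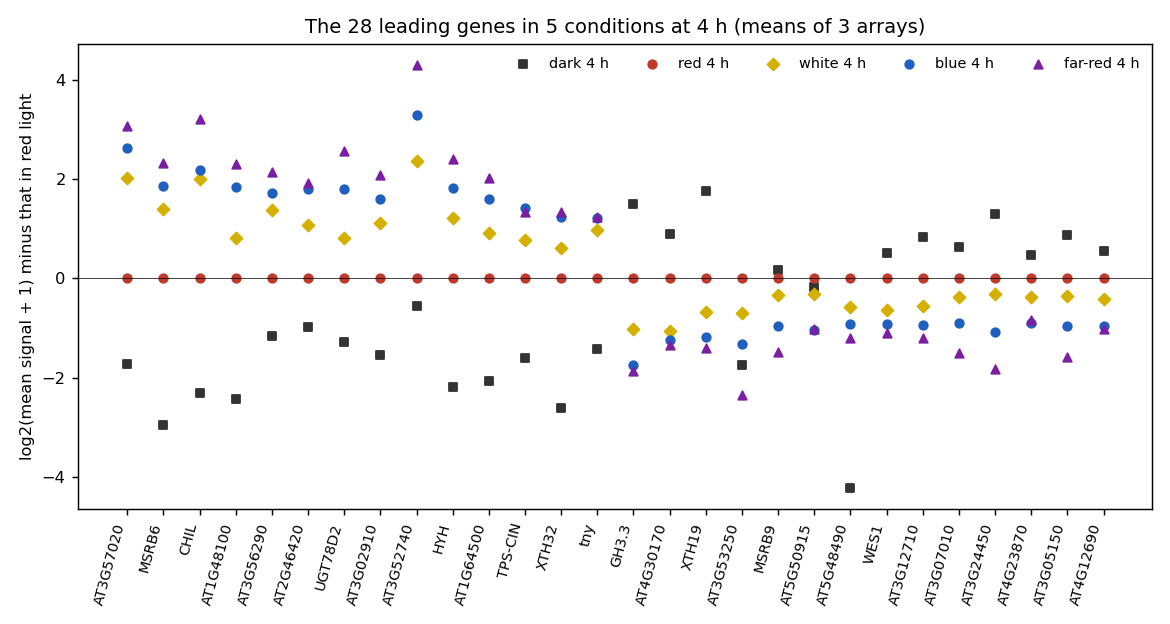
Mean signal of the 14 leading rises (left) and 14 leading falls (right) in 5 conditions at 4 h, as log2(mean signal + 1) minus the value in red light, each mean over 3 arrays. White light (diamonds) lies between red and blue light in all 28 genes, and far-red light (triangles) lies beyond blue in 25 of them.

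Likeness of levels was read over the 16 group means of the series, 8 conditions at both harvests. The conditions were darkness, far-red, red pulse, red, blue, UV-A, UV-A/B and white light. The genes whose levels were most like those of AT3G57020 were CHIL and MSRB6 (Pearson r = 0.985 each) and AT5G16010 (0.982). Those most like MSRB6 were AT5G16010 (0.986), AT3G57020 (0.985) and CHIL (0.98). For GH3.3 they were WES1 (0.97), HAT2 (0.936) and CML23, a calmodulin-like protein (0.935). For AT4G30170 they were AT3G43270 (0.989), AT1G62480 (0.986) and AT1G62770 (0.982). The 3 genes most like AT4G30170 were lower in blue than in red light at 4 h, by -0.64, -0.52 and -0.64, and AT5G16010 was higher by 0.77. The points share their arrays, and the values describe likeness of levels.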

How the data were processed

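Expression was measured on 48 ATH1 arrays, and the authors deposited linear intensity values, for which the submitters' processing notes name MAS5 without a version. The values of each array have a trimmed mean near 100, and they were not scaled further. Signals at or near 0 occur, so low levels are uncertain.

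Values were log2 transformed after adding 1, which understates changes of low genes. A probe set was tested if, on 3 or more arrays, it exceeded the array's 40th percentile (15777, with 64 controls left out of 22810). With limma 3.58.1 (R 4.3.3), lmFit and eBayes with an intensity trend were run on the 16 group means of all 48 arrays (32 residual degrees of freedom, mean prior 6.15). A call is a Benjamini-Hochberg adjusted p under 0.05 within a contrast. The fit was tested on simulated data. Levels are signals with the SD over 3 arrays, and differences are log2 with the fit's SE. Values were read with the data.table package (version 1.17.8) and pandas 2.3.3 and numpy 2.4.6 in Python 3.11.15, with matplotlib 3.10.9 for plots.

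Gene names come from the platform's probe annotation and RefSeq. Among 22746 probe sets, 13513 are paired with 1 gene (13436 found in RefSeq). The 503 paired with several genes and the 8730 absent from the annotation given stay unnamed. A gene with several probe sets was read from the one with the highest mean. List members count only where RefSeq gives their name. Plastid-encoded genes were taken by RefSeq chromosome, since the planned locus prefix matched none.

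The members and lists were chosen with earlier results of these data known. Named genes are the 14 largest rises and 14 largest falls (ranked with a pseudocount of 16) among called 1-gene probe sets whose blue and red arrays do not overlap, up to 4 called members of each list, all tested members of lists with 5 or fewer, and a panel of 10 genes. Of these 77 and of 16 genes added after their values were seen, the text gives a part.

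Replicate numbers come from the titles. Deviations from the group means correlated between blue and red arrays of the same number at 0.11, 0.175 and 0.157 at 4 h (different numbers, -0.152 to 0.00622) and at 0.222, 0.227 and 0.32 at 45 min, so the numbers were taken to pair the arrays, and block results stand beside the calls they change. Alternatives were a pseudocount of 16, no filter or a filter at the 60th percentile, quantile normalization, a common median, no intensity trend, a fit on the compared groups alone, the replicate block, and each replicate left out.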

Additional observations from a re-analysis of the deposited data

Results flagged for a closer look

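A test in the same fit called a change in the difference of blue from red between harvests in 19 of 93 named genes. Over all probe sets tested the share was 0.944%. Many of the 93 were chosen for a wide difference at 4 h, which makes such a change more frequent, so the count is a description. GR1, SMZ, UPB1 and GH9B13 were added after their values were seen. The signed change was positive in 12 of the 19. The log2 change from 45 min to 4 h was 2.22 for AT3G57020, 1.77 for MSRB6, 1.68 for AT1G48100, 1.54 for UPB1, 1.49 for AT2G46420, 1.29 for UGT78D2, 1.25 for AT3G56290, 1.11 for tny, 1.10 for AFR, 1.05 for GR1, 0.97 for AT3G02910 and 0.77 for SMZ. For UPB1, a bHLH regulator of peroxidase genes in roots, the difference went from -0.43 at 45 min, which was not called (adjusted p = 0.701), to 1.11 ± 0.21 at 4 h (SE, adjusted p = 0.000665).

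The change was negative in the other 7: -1.26 for AT4G30170, -1.14 for MSRB9, -1.05 for GH9B13, -1.0 for AT4G23870, -0.96 for EXPB1, -0.89 for AT3G05150 and -0.77 for AT3G07010. In EXPB1 the difference was 0.28 (adjusted p = 0.76) at 45 min and -0.68 at 4 h.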

How the results depend on the processing

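With the replicate number as a block, 1012 probe sets were called for blue against red at 4 h, 144 at 45 min and 336 for the difference between harvests (655, 81 and 149 without it). The block kept all 655 calls at 4 h, and with them those of the 59 called among the 93 genes chosen for naming. A fit on the compared groups alone called 31 at 45 min. Leaving out 1 replicate gave 420 (without blue 4 h replicate 1) to 540 calls at 4 h, 47 (without red 45 min replicate 2) to 61 at 45 min, where 53 were called without red 45 min replicate 3, and 102 to 141 for the difference between harvests. The other settings kept the count at 4 h between 600 and 700, but not always the same probe sets. A fit on the compared groups alone called 634, of which 473 were among the 655. With a pseudocount of 16, 700 were called, 641 of them among the 655.

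Among 1296 values of 93 genes the direction turned in 13, each with 1 replicate left out and each in a gene not called. With 1 replicate left out, LIL3:2 ranged from -0.008 to 0.13 (-0.002 without red 4 h replicate 2), TAPX from -0.34 to 0.33 (-0.07 without red 4 h replicate 3), RCA from -0.022 to 0.13, EXPA18 from -0.28 to 0.39, WRKY47 from -0.20 to 0.15, PIP from -0.012 to 0.087 and IAA29 from -0.05 to 0.14. A call was lost in 62 of the 1296 values and gained in 4. The call was kept under every alternative by 26 of the 28 leading genes, the exceptions being TPS-CIN and AT5G48490. The 28 were chosen from the same arrays for wide gaps, which favours a kept call. Of all 655 calls, 402 were kept without blue 4 h replicate 1 and 491 without blue 4 h replicate 2. The cause of the turned directions and of the lost and gained calls was not tested. Low signals limit what can be read for AT3G52740, COR27 and BGLU47.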

Other observations

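Further named genes called in blue against red light at 4 h, chosen after their values were seen, include GR1, ATMDAR2 and GME, which come from no list fixed for them. GR1, a glutathione reductase, was at 741.3, 720.7 and 728.1 in blue, 344.0, 290.8 and 320.2 in red and 217.3, 240.9 and 231.7 in darkness (1.20 ± 0.12 SE, adjusted p = 9.96e-09). ATMDAR2, a monodehydroascorbate reductase, was at 633.7, 848.9 and 770.6 in blue and 556.3, 507.8 and 559.2 in red, with red near the dark arrays at 600.0, 564.3 and 577.8 (0.46 ± 0.10 SE, adjusted p = 0.00255). GME, an epimerase of ascorbate synthesis, was at 568.4, 551.8 and 503.7 in blue and 336.8, 344.2 and 362.9 in red (0.64 ± 0.16 SE, adjusted p = 0.0158). The ascorbate peroxidase genes SAPX (0.44, adjusted p = 0.12) and TAPX (0.05, adjusted p = 0.975) were not called. The call of ATMDAR2 was lost in a fit on these groups alone (adjusted p = 0.0555), and that of GME without blue 4 h replicates 1 or 2 or red 4 h replicates 1 or 2 (0.08, 0.0554, 0.0634 and 0.0562). Of 4 tested MSRB genes, a family also taken after the values were seen, 2 were called higher (MSRB6 and MSRB5) and 1 lower (MSRB9). Other families taken in this way included SCPL (0 higher and 3 lower of 17 tested) and ALDH (0 and 2 of 8). They also included TBL (1 and 1 of 17) and GH9 (1 and 1 of 12). Over all probe sets tested, 2.15% were called higher and 2.00% lower. MSRB5 differed by 0.50 (adjusted p = 0.035), and its call was lost under a common median (0.0669), in a fit on these groups alone (0.0761) and without blue 4 h replicates 1 or 3 or red 4 h replicates 1 or 2 (0.128, 0.16, 0.203 and 0.154).

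Of 3 tested SDH genes, for succinate dehydrogenase of the mitochondrial electron transport chain, SDH1-1 and SDH2-1 rose; they and the next genes were likewise chosen after their values were seen. SDH2-1 was at 770.1, 768.1 and 887.3 in blue and 431.5, 526.5 and 569.1 in red (0.67 ± 0.11 SE, adjusted p = 5.58e-05), and SDH1-1 was at 376.1, 344.6 and 430.6 against 254.6, 247.9 and 241.0 (0.62 ± 0.13 SE, adjusted p = 0.00132). SDH2-2 was the third, at 0.03. Of 3 tested CYTC genes 1 was called higher. For both families, the share called higher over all probe sets tested was 2.15%. CYTC-2, a cytochrome c, differed by 0.69 (adjusted p = 0.0219), while CYTC-1 was at -0.04 and CYTC6A at -0.01 (adjusted p = 0.922 and 0.994). The call of CYTC-2 was lost without blue 4 h replicates 1 or 3 or red 4 h replicates 1 or 2 (0.0958, 0.093, 0.0608 and 0.147). ALDH6B2, of valine breakdown, was lower by -0.38 (adjusted p = 0.0461), and lost its call under a common median (0.0637), without the filter (0.0655), without the intensity trend (0.064) and with any 1 of the 6 replicates left out (0.0703 to 0.193).

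Called at both harvests with the same sign were 7 probe sets higher and 26 lower in blue. AT1G06000, BZIP61, AT5G44680 and AT3G10020 were chosen from them after their values were seen. AT1G06000 was at 282.0, 263.9 and 280.8 in blue and 187.5, 174.8 and 166.8 in red at 45 min (0.64, adjusted p = 0.0335) and differed by 1.18 at 4 h (adjusted p = 1.03e-06). BZIP61 was at 148.6, 144.4 and 120.2 in blue and 193.7, 240.0 and 183.5 in red at 45 min (-0.57, adjusted p = 0.0145) and differed by -0.76 at 4 h. AT5G44680 differed by -0.84 and -0.95, and AT3G10020 by -0.66 and -0.77. UPB1 was lowest in red light among blue, red and dark at 4 h, with 110.2, 60.3 and 94.2 against 193.3, 168.2 and 196.3 in blue and 266.2, 273.2 and 203.3 in darkness.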
